A study of Mus musculus with 18 samples.

Results

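The macrophage marker genes described here are 10 genes, C1qa, C1qb, Csf1r, Emr1, Cd68, Tyrobp, Fcer1g, Ctss, Cd14 and Lyzs, out of 18118 gene symbols measured on mouse beadchip arrays. They were chosen by symbol as genes known to be expressed in macrophages, and all 10 symbols were present in the deposited table. Emr1 is now named Adgre1 and encodes the F4/80 antigen, and Lyzs is now named Lyz2. RNA came from pancreatic cells of Rag1-/- mice, which lack mature T and B cells, and this genotype was shared by all 6 groups of 3 arrays. Induced beta cells were taken on day 10, on day 30, on day 60 and at 7 months after an adenovirus was injected into the splenic lobe. They were recovered as cells positive for Cherry, a red fluorescent protein, by fluorescence-activated sorting from the digested acinar fraction, after the endogenous islets had been taken out. The groups they were set against were acinar cells, which make digestive enzymes, and endogenous beta cells, which make insulin. The labels do not name the genes carried by the virus, do not say how the acinar and beta cells were purified, and are silent on whether replicate arrays are from different mice. The p-values therefore reflect array-to-array spread alone, some or all of which may be technical. The age of the mice is not stated in the labels.

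Macrophages are phagocytes that live in most tissues, the pancreas included, and clear dying cells, debris and microbes. C1qa and C1qb encode chains of C1q, the recognition molecule of the classical complement pathway, which macrophages secrete. Csf1r encodes the receptor for CSF1 and IL-34, on which macrophage survival depends, Emr1 encodes an adhesion G protein-coupled receptor used as a surface marker of mouse macrophages, and Cd14 encodes a co-receptor that hands lipopolysaccharide to Toll-like receptor 4. Tyrobp (DAP12) and Fcer1g (the Fc receptor gamma chain) encode membrane adaptors with an immunoreceptor tyrosine-based activation motif (ITAM), through which Fc receptors, TREM2 and related receptors signal. Cd68 encodes a glycoprotein of the endosomal and lysosomal membrane, Ctss a cysteine protease that acts in antigen processing, and Lyzs the lysozyme of macrophages. None of these genes is restricted to macrophages: other myeloid cells express most of them, and Cd68 and C1q genes are lysosomal and secreted products that other cells can make at low levels.

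The factor PU.1 is known to bind purine-rich elements with the core GAGGAA in promoters of myeloid genes, so upstream sequences of the members were read for these letters. Promoter windows of 5 members were read from the RefSeq table (build GRCm38.p6). Those of C1qa, Emr1 and Tyrobp were not found there. Csf1r and Cd14 were left out of the search, so whether their windows hold these letters was not tested. Of the 5 windows, 3 are shown. C1qb was chosen as the member with the largest difference between day 10 and beta cells. Cd68 was chosen because its pattern over the groups departed most from the others, and Lyzs for the widest range over the late arrays. Each window is the 250 bases before the annotated start, 5′ to 3′ on the gene's strand, with GAGGAA in capitals. The windows lie at chr4:136886201-136886450 (C1qb, minus strand), chr11:69666171-69666420 (Cd68, minus strand) and chr10:117282273-117282522 (Lyz2, minus strand).
C1qb: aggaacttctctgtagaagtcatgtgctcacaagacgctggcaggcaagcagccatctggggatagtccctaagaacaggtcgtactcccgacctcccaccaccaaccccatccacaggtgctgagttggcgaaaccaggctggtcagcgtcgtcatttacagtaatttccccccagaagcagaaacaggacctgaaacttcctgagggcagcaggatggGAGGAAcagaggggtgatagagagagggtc
Cd68: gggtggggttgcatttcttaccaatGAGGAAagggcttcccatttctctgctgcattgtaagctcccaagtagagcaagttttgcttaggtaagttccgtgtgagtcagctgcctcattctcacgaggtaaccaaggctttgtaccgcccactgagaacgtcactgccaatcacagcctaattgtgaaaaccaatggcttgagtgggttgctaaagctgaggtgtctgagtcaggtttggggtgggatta
Lyz2: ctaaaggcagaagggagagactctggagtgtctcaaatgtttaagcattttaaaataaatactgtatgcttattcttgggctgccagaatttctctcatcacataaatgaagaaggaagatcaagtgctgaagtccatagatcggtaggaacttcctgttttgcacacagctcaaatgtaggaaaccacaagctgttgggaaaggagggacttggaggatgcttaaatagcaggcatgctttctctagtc
GAGGAA began 30 bases before the start of C1qb and 225 bases before that of Cd68, and was not found in the Lyz2 window. Of the other matched members, Ctss held it 164 bases before its start and Fcer1g did not hold it. Searched on both strands, GAGGAA was present in 23.3% of all 32851 windows of the same length, so 3 of 5 windows is a description of these letters only. The E-box CACGTG, present in 6.02% of windows, was in none of the 5.

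Between 5990 and 7745 symbols per array had a deposited detection p-value under 0.01, and 8942 genes that reached this on at least 3 arrays were tested. Values below are normalized log2 intensities, and a member is called measured on an array where its deposited signal reached the lowest signal of a detected gene on that array (70 to 98 units). All 10 members passed the filter, but not with equal weight: Fcer1g had a detection p-value under 0.01 on 18 arrays, Ctss on 6 (those of days 10 and 30) and Csf1r on 3. Csf1r, Emr1, Ctss and Lyzs reached it on arrays of induced cells only. Each difference is on the log2 scale, followed by its standard error (SE), from 3 arrays in each group, and a gene is called where limma's adjusted p is under 0.05. The SE of a gene pools its spread over all 6 groups. Where the day 60 and 7-month arrays spread widely, it is therefore too large for the other groups and too small for these. For C1qb the SD was 0.029 on day 10 and 1 on day 60. In bulk samples like these, the number of macrophages, the RNA per macrophage and expression by other cells cannot be told apart. The groups matched their labels for Ins1, an insulin gene that averaged 12.28 on day 10, 14.16 on day 30, 14.30 on day 60, 14.41 at 7 months, 4.31 in acinar cells and 14.70 in beta cells. Cpa1, a digestive enzyme gene, averaged 8.58 in beta cells and 14.24 in acinar cells, and its 14.08 to 14.19 in the induced groups was close to the acinar level.

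The 6 late arrays stood apart from the rest. Deviations from the group mean over all tested genes correlated at 0.79 to 0.86 between 7-month and day 60 arrays of the same replicate number, against −0.04 to 0.07 for same-numbered arrays of every other pair of groups. The SD of the log2 differences between same-numbered 7-month and day 60 arrays was 0.161 to 0.178, compared with 0.374 to 0.468 within the 7-month group and 0.377 to 0.466 within the day 60 group. In the other groups that SD was 0.189 to 0.198 (day 10), 0.145 to 0.146 (day 30), 0.218 to 0.246 (acinar) and 0.12 to 0.122 (beta). A 7-month array and the day 60 array of the same number were therefore as alike as replicates of the other groups, and both late groups hold the same 3 patterns. The labels do not say what the same-numbered arrays share. Results at 7 months are therefore no independent repeat of those on day 60, although the model without a block counts the 6 late arrays as independent.

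The C1q genes had their highest group means on day 10. C1qb was at 9.98, 10.04 and 10.01 on the day 10 arrays, at 7.95, 8.07 and 7.96 on day 30, at 8.65, 10.67 and 9.66 on day 60 and at 8.70, 10.50 and 9.77 at 7 months. Acinar arrays had 8.05, 8.01 and 7.96, and the beta arrays, on which C1qb was not measured, had 4.29, 4.36 and 4.39. Day 30 and acinar values overlapped, every later value lay above both, and the second day 60 and 7-month arrays exceeded every day 10 array. C1qa was at 9.0, 9.02 and 9.16 on day 10, at 7.40, 7.47 and 7.54 on day 30, at 6.77, 8.27 and 7.94 on day 60 and at 6.97, 8.37 and 7.93 at 7 months. Its acinar values of 5.96, 5.23 and 5.68 were not above the detection threshold, while its beta values of 5.91, 5.93 and 5.97 were. So the chains of the same molecule differed in their order over the groups: C1qb was measured in acinar and not in beta cells, and C1qa in beta and not in acinar cells, where the values of the 2 groups overlapped.

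Among the receptors, Cd14 was at 8.70, 8.73 and 8.70 on day 10, at 7.57, 7.76 and 7.75 on day 30, at 8.24, 9.47 and 8.24 on day 60 and at 8.27, 9.32 and 8.17 at 7 months. The acinar arrays had 8.27, 8.15 and 8.30, and the beta arrays 4.67, 4.88 and 4.58, where Cd14 was not measured. Acinar cells thus lay above all day 30 arrays and below all day 10 arrays, and 2 of the 3 arrays of each late group were at the acinar level. Emr1 was at 7.05, 7.17 and 6.92 on day 10, at 5.67, 5.84 and 5.73 on day 30, at 5.19, 6.13 and 5.69 on day 60, and at 5.06, 6.11 and 5.51 at 7 months, with 5.15 to 5.22 in acinar cells and 4.39 to 4.49 in beta cells. It was measured on every day 10 and day 30 array, on 2 of 3 arrays of each late group, and on no acinar or beta array. Csf1r was at 5.80, 6.20 and 6.02 on day 10, at 5.26 to 5.41 on day 30, at 5.11 to 6.05 on day 60 and at 5.08 to 5.71 at 7 months. Its highest group was acinar cells, with 6.46, 6.63 and 6.42, and the beta arrays had 4.62 to 4.64, not measured. Csf1r was the only member whose acinar arrays all lay above every other array, and that order turned on values without normalization between arrays.

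The ITAM adaptors followed C1qb. Fcer1g, the only member measured on all 18 arrays, was at 9.76, 9.76 and 9.89 on day 10, at 7.94, 8.03 and 7.84 on day 30, at 8.86, 9.78 and 9.09 on day 60 and at 8.77, 9.86 and 9.10 at 7 months. It was at 8.01, 7.96 and 7.80 in acinar cells and at 6.52, 6.42 and 6.48 in beta cells. Tyrobp was at 7.19, 7.07 and 7.08 on day 10, at 5.14, 4.86 and 4.97 on day 30, at 5.80, 7.34 and 6.81 on day 60 and at 6.01, 7.37 and 6.54 at 7 months. Acinar cells had 6.31, 5.73 and 5.92, with 2 of 3 arrays measured, and beta cells 4.45 to 4.52. Tyrobp was the only member not measured on any day 30 array.

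Of the lysosomal members, Lyzs followed C1qb (correlation 0.987 over the 18 arrays), whereas Cd68 (0.398) and Ctss (0.377) departed from it. Cd68 was at 8.66, 8.69 and 8.66 on day 10, at 7.23, 7.23 and 7.14 on day 30, at 6.96, 7.66 and 7.52 on day 60 and at 6.99, 7.89 and 7.81 at 7 months. In beta cells it was measured on every array, at 7.15, 6.91 and 6.88, and in acinar cells on none, at 4.93, 5.61 and 4.65. Beta values overlapped those of day 30, day 60 and 7 months. Ctss was measured on the day 10 arrays (6.46, 6.17 and 6.07) and the day 30 arrays (5.47, 5.48 and 5.51) and nowhere else, with 4.44 to 5.24 on day 60, 4.52 to 5.12 at 7 months, 5.27 to 5.79 in acinar cells and 4.63 to 4.88 in beta cells. Lyzs was at 9.86, 9.72 and 9.71 on day 10, at 8.47, 8.56 and 8.50 on day 30, at 8.56, 10.77 and 9.58 on day 60 and at 8.48, 10.73 and 9.72 at 7 months. Acinar cells had 8.61, 8.50 and 8.73 and beta cells, on which it was not measured, 4.42 to 4.46. Lyz1 (Lyz in the table) is a near-identical copy whose row correlated with that of Lyzs at 0.984 over the 18 arrays, so the share of the Lyzs signal that comes from Lyz2 itself is uncertain.

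Against endogenous beta cells, most members were higher in induced cells. All 10 were called higher on day 10 (38.0% of tested genes were called higher in that comparison), 8 on day 30 (34.5%), 8 on day 60 (34.6%) and 9 at 7 months (34.7%), and none was called lower (42.0% of tested genes on day 10, 39.9% on day 30, 43.1% on day 60 and 43.1% at 7 months). The members' median log2 difference was 2.87 on day 10, 1.38 on day 30, 1.94 on day 60 and 1.99 at 7 months, against −0.02, −0.05, −0.10 and −0.10 for all tested genes. These 4 comparisons share the beta arrays. Because Csf1r, Emr1, Ctss and Lyzs passed the filter through induced arrays only, their calls as higher are not independent of it. The counts of members called higher are therefore not a fair contrast with the share of all genes. Where a member was not measured on any array of the dimmer group the difference is only a bound, computed against the lowest detected signal of each array. C1qb was at least 23-fold higher on day 10, at least 5.68-fold on day 30, at least 18-fold on day 60 and at least 17.9-fold at 7 months than in beta cells (adjusted p = 3.06e-09, 8.05e-07, 1.02e-08 and 1.01e-08). Lyzs was at least 19.4-fold, 8.11-fold, 17.7-fold and 17.8-fold higher at the same times, and Cd14 at least 9.30-fold, 4.60-fold, 8.93-fold and 8.55-fold. These bounds hold for the background estimate used here: when limma itself inferred the negative controls, the C1qb differences were 3.00, 0.90, 2.61 and 2.60 on the log2 scale in time order, below the bounds. On day 30 that setting ended the calls of C1qb (adjusted p = 0.109), C1qa (0.42, adjusted p = 0.0558), Fcer1g (0.60, adjusted p = 0.0585) and Cd14 (0.66, adjusted p = 0.0819).

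Of the members measured in beta cells, Fcer1g was higher by 3.33 ± 0.23 on day 10, 1.46 ± 0.23 on day 30, 2.77 ± 0.23 on day 60 and 2.77 ± 0.23 at 7 months, with no overlap between induced and beta arrays. C1qa was higher by 3.13 ± 0.34, 1.54 ± 0.34, 1.73 ± 0.34 and 1.82 ± 0.34 at those times. Cd68 was 3.23-fold higher on day 10 (1.69 ± 0.25, adjusted p = 1.08e-05), but 0.22 ± 0.25 on day 30 and 0.40 ± 0.25 on day 60 were not called (adjusted p = 0.434 and 0.150). Its call at 7 months (0.58 ± 0.25, adjusted p = 0.0414) was lost without 7-month array 2 (0.42, adjusted p = 0.164) or 3 (0.46, 0.141), without beta array 2 (0.55, 0.0948) or 3 (0.53, 0.104) and, by a narrow margin, without any of the day 10 arrays (adjusted p = 0.0509 to 0.0513). It was also lost with median scaling (0.18, adjusted p = 0.431), without normalization between arrays (0.15, adjusted p = 0.41), when dim genes were kept in the test (adjusted p = 0.0697) and in a fit to the 2 groups alone (adjusted p = 0.061). Without the first day 60 array Cd68 was called higher on day 60 too (0.61, adjusted p = 0.0404). Ctss was called higher on days 10 and 30 (at least 1.67-fold on day 10, and 0.76 ± 0.20 on day 30 with beta cells unmeasured) and differed from beta cells by 0.08 ± 0.20 on day 60 and 0.00 ± 0.20 at 7 months, where it was not measured in either group.

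Beta cells themselves were lower than acinar cells for most members. Of the 10, 8 were called lower in beta cells (37.3% of tested genes), 1 higher (42.1%), and 1 was not called, with a member median of −1.47 against 0.06 for all tested genes. Lyzs was at least 8.73-fold lower, Cd14 at least 6.72-fold, C1qb at least 5.72-fold, Csf1r at least 2.02-fold and Tyrobp at least 1.41-fold, and Fcer1g, measured in both, fell by 1.45 ± 0.23 on the log2 scale. Deposited acinar signals of Csf1r (78.7 to 85.5) and Tyrobp (64.6 to 75.6) lay below the lowest detected signal of each beta array (87.05 to 90.71). The bounds of Csf1r and Tyrobp thus hold only after quantile normalization. Emr1 and Ctss were called lower as well but were not measured in either group. The member called higher was Cd68, at least 1.87-fold. On values without normalization between arrays Fcer1g was 0.13 higher in beta cells and no longer called (adjusted p = 0.502), and 4 members were called lower. Of all genes called in that setting, 88.4% were higher in beta cells. With the negative controls inferred by limma 4 were called lower too: Lyzs, Cd14 and C1qb stood at −1.43, −1.04 and −0.90, below their bounds in size, and the calls of C1qb (adjusted p = 0.1), Fcer1g (−0.59, adjusted p = 0.057), Tyrobp (−0.15, adjusted p = 0.123) and Emr1 (−0.07, adjusted p = 0.0534) were lost.

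**Figure D1:**
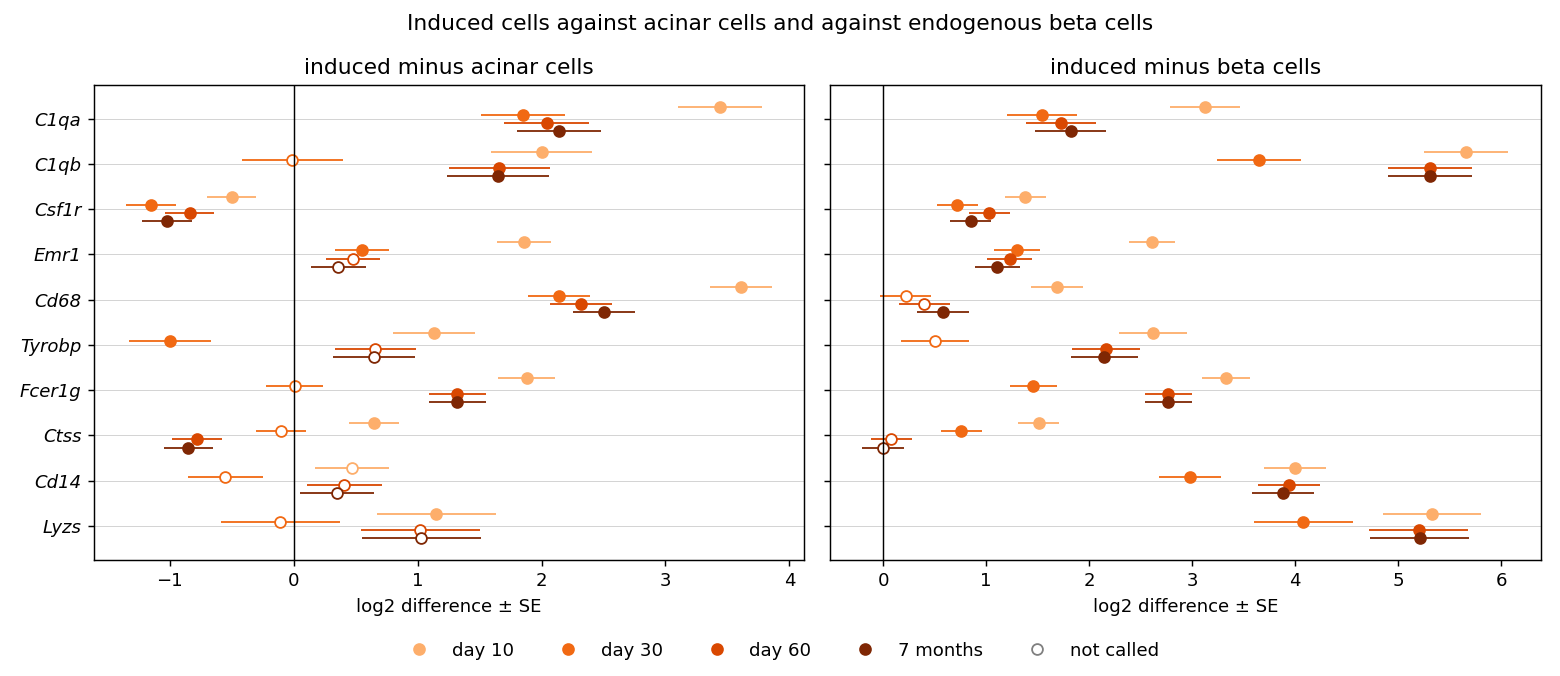
Log2 difference with its SE (horizontal axis) of each macrophage marker gene (rows) between induced cells at 4 times and acinar cells (left) or endogenous beta cells (right), with filled points where limma called the gene and open points where it did not. Against beta cells no point lies clearly below 0, whereas against acinar cells C1qa and Cd68 lie to the right at each time and Csf1r to the left, where its sign turned on values without normalization between arrays.

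Against acinar cells the direction depended on the gene and on the time. On day 10, 8 members were called higher (40.2% of tested genes) and 1 lower (39.6%), with a member median of 1.51 against 0.01 for all genes. On day 30 the counts were 3 higher (39.6%) and 2 lower (39.7%), with a median of −0.05 against 0.00. On day 60, 4 were higher (37.6%) and 2 lower (39.4%), and at 7 months again 4 were higher (37.8%) and 2 lower (39.9%), each with a median of 0.84 against −0.01. So the counts on day 30, day 60 and at 7 months were near the share of all genes called. These 4 comparisons share the acinar arrays. Calls of Emr1, Ctss and Lyzs as higher are again not independent of the filter, which they passed through induced arrays only.

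Cd68 and C1qa were higher than in acinar cells at every time. Cd68 was at least 6.03-fold higher on day 10, 2.17-fold on day 30, 2.46-fold on day 60 and 2.80-fold at 7 months (adjusted p = 1.4e-09, 8.36e-07, 3.73e-07 and 1.51e-07), and C1qa at least 7.91-fold, 2.63-fold, 3.00-fold and 3.20-fold (adjusted p = 1.41e-07, 0.000129, 5.36e-05 and 3.4e-05). C1qb was 4.01-fold higher on day 10 (2.00 ± 0.41, adjusted p = 0.000324), differed by −0.01 ± 0.41 on day 30, and was 3.15-fold higher on day 60 (1.66 ± 0.41, adjusted p = 0.00173) and 3.13-fold higher at 7 months (1.65 ± 0.41, adjusted p = 0.00179). Fcer1g had the same pattern, with 1.88 ± 0.23, 0.01 ± 0.23, 1.32 ± 0.23 and 1.32 ± 0.23 in time order. Tyrobp was higher on day 10 (1.13 ± 0.33, adjusted p = 0.00531), lower on day 30 (at least 1.57-fold, adjusted p = 0.0117, though 0.17 higher and uncalled without normalization between arrays), and not called on day 60 (0.66 ± 0.33, adjusted p = 0.0778) or at 7 months (0.65 ± 0.33, adjusted p = 0.0818). Emr1 was at least 1.96-fold higher on day 10 (adjusted p = 1.16e-06). Its call on day 30 (0.55 ± 0.22, adjusted p = 0.0313) was lost in 5 of the 6 fits that left out an array of either group (0.50 to 0.58, adjusted p = 0.055 to 0.0843), the exception being the first day 30 array. With the negative controls inferred by limma, Cd68 was 1.42, 0.39, 0.48 and 0.58 higher and C1qa 1.80, 0.46, 0.64 and 0.68 higher on the log2 scale in time order, still called but below the bounds, and the day 30 calls of Tyrobp (−0.11, adjusted p = 0.277) and Emr1 (0.06, adjusted p = 0.116) were lost. On day 60 Emr1 was at 0.48 ± 0.22 (adjusted p = 0.0596), and at 0.36 ± 0.22 at 7 months (adjusted p = 0.144).

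Lyzs was called on day 10 (1.15 ± 0.48, adjusted p = 0.0367), a call lost when any of the acinar or day 10 arrays was left out (1.09 to 1.21, adjusted p = 0.0575 to 0.0831) or both late arrays numbered 3 (1.16, adjusted p = 0.054). Its day 10 and acinar arrays did not overlap (SD 0.084 and 0.12), and the SE pools the late spread (SD 1.1 on day 60 and at 7 months). Cd14 was not called at any time (0.47 ± 0.30 on day 10, adjusted p = 0.157), although its day 10 and acinar arrays did not overlap and a fit to these 2 groups alone called it (adjusted p = 0.000236). After quantile normalization Csf1r was lower at each time, by −0.50 ± 0.20 on day 10, −1.15 ± 0.20 on day 30, −0.84 ± 0.20 on day 60 and −1.02 ± 0.20 at 7 months (adjusted p = 0.032, 6.59e-05, 0.00117 and 0.000228), with every sign turned on values without normalization between arrays. The day 10 call was lost without acinar array 1 or 2 or day 10 array 1 or 3 (−0.52, −0.44, −0.39 and −0.50, adjusted p = 0.0558 to 0.124). Ctss was at least 1.11-fold higher on day 10 and was called lower on day 60 and at 7 months, where neither group was measured and the values without normalization gave 0.05 and 0.00.

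The pairing of the late arrays touched these calls. With the replicate number as a block, Lyzs was called higher than in acinar cells on day 60 (1.02, adjusted p = 0.0413, against 0.0623 without the block) and at 7 months (1.03, adjusted p = 0.0397, against 0.0601), and Emr1 on day 60 (0.48, adjusted p = 0.0285). Same-numbered late and acinar arrays did not deviate together (correlations within −0.04 to 0.07). The block thus took late spread out of the error without pairing these groups, and its added calls overstate the evidence. Leaving out the day 60 and 7-month arrays numbered 1 raised the number of members called higher to 7 on day 60 and 7 at 7 months, with Emr1 (0.71 and 0.61), Tyrobp (1.09 and 0.97) and Lyzs (1.57 and 1.62) added in both. Leaving out the first day 60 array alone or the second 7-month array alone also gave 7 on day 60, and the first 7-month array alone gave 7 at 7 months. Over all fits without 1 array, 6648 to 6990 genes were called on day 60, 48.3% to 49.1% of them higher. At 7 months 6673 to 7037 were called, 48.4% to 49.2% of them higher.

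The scale of the acinar arrays bears on every comparison with them. Deposited C1qb signals were 349 to 376 on day 30 and 135 to 159 in acinar cells, yet quantile normalization set both at about the same level, since the acinar arrays were dimmer over most genes (median deposited signals from 56.8 on an acinar array to 81.6 on a day 30 array). Scaling each array by its median moved the median of all genes to between 0.42 and 0.68 for induced minus acinar cells, and the values without normalization moved it to between 0.60 and 0.93. The percent of called genes that were higher then rose as well: to 69.3 (day 10), 77.8 (day 30), 77.1 (day 60) and 74.6 (7 months) with median scaling, and to 85.5, 93.6, 92.4 and 90.2 without normalization, against 50.4, 49.9, 48.8 and 48.6 by quantiles. Under median scaling 6 members were called higher and 0 lower on day 30, with C1qb at 1.03 and Lyzs at 0.99, and without normalization 8 were called higher, with C1qb at 1.30 and Csf1r turned to 0.19. Relative to the median of all genes, 9 members lay above on day 10 under both scalings, and 6 (median scaling) or 5 (no normalization) on day 30. On day 10 the 9 members other than Csf1r were higher than in acinar cells on all 3 scales, Cd14 uncalled by quantiles, and Csf1r turned to 0.30 without normalization. On day 30 the sign without normalization also turned for Tyrobp (0.17), Ctss (0.57), Cd14 (0.85) and Lyzs (1.32).

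Within the induced cells, the members fell between day 10 and day 30. All 10 were called lower on day 30 than on day 10 (30.0% of tested genes) and none higher (31.1%), with a member median of −1.39 against 0.01, and no member's arrays overlapped between the 2 times (36.7% of tested genes had all day 30 arrays below all day 10 arrays). Tyrobp fell at least 3.43-fold, C1qb 4.04-fold (−2.02 ± 0.41, adjusted p = 0.000566), Fcer1g 3.65-fold (−1.87 ± 0.23, adjusted p = 5.77e-06) and C1qa 3.01-fold (−1.59 ± 0.34, adjusted p = 0.000893). Cd68 fell 2.77-fold, Emr1 2.47-fold, Cd14 2.02-fold, Ctss 1.68-fold and Csf1r 1.58-fold, and with median scaling the Csf1r and Ctss calls were lost (−0.40 and −0.45, adjusted p = 0.105 and 0.0617). Lyzs fell 2.39-fold (−1.26 ± 0.48, adjusted p = 0.0323), and this call was lost whichever day 10 or day 30 array was left out (adjusted p = 0.0611 to 0.0762). The SD of Lyzs was 0.084 on day 10 and 0.042 on day 30, and its SE also pools the late spread (SD 1.1 on day 60 and at 7 months). With the negative controls inferred by limma all 10 were still called lower, with smaller falls for Tyrobp (−0.37), Emr1 (−0.27), Ctss (−0.10) and Csf1r (−0.08). Without normalization between arrays 6 members were called lower, with Csf1r, Ctss, Cd14 and Lyzs at −0.12, −0.15, −0.45 and −0.83 and uncalled, while the median of all genes stood at 0.26. Of all genes called in that setting, 84.2% were higher on day 30.

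On day 60 compared with day 30, 4 members were called higher (30.2% of tested genes) and 1 lower (31.6%), with a member median of 0.63 against 0.00. The count called higher was near the share of all genes. The 4 were C1qb (3.17-fold, 1.67 ± 0.41, adjusted p = 0.00248), Tyrobp (at least 2.49-fold, adjusted p = 0.000457), Fcer1g (2.48-fold, 1.31 ± 0.23, adjusted p = 0.000162) and Cd14 (1.94-fold, 0.96 ± 0.30, adjusted p = 0.0111). Cd14 lost its call without the second day 60 array (0.55, adjusted p = 0.0613). Ctss was lower, by at least 1.02-fold (−0.68 ± 0.20, adjusted p = 0.00748). The bounds of Tyrobp and Ctss hold only for the background estimate and scale used here. Deposited Tyrobp signals were 108 to 218 on day 60, and the lowest detected signals of the day 30 arrays were 90.02 to 94.92. Lyzs, at 1.13 ± 0.48, missed the threshold (adjusted p = 0.0514) and was called with the replicate block (adjusted p = 0.0332) and without the first day 60 array (1.67, adjusted p = 0.00497), the first 7-month array (adjusted p = 0.0183) or the second (adjusted p = 0.0226). The block does not pair day 60 with day 30 arrays, so its call overstates the evidence. C1qa (0.19 ± 0.34), Cd68 (0.18 ± 0.25), Csf1r (0.31 ± 0.20) and Emr1 (−0.07 ± 0.22) were not called. Without both late arrays numbered 1, 7 members were called higher, C1qa (0.64), Csf1r (0.58) and Lyzs (1.68) being added. The share of all genes called in that fit is not given here.

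**Figure D2:**
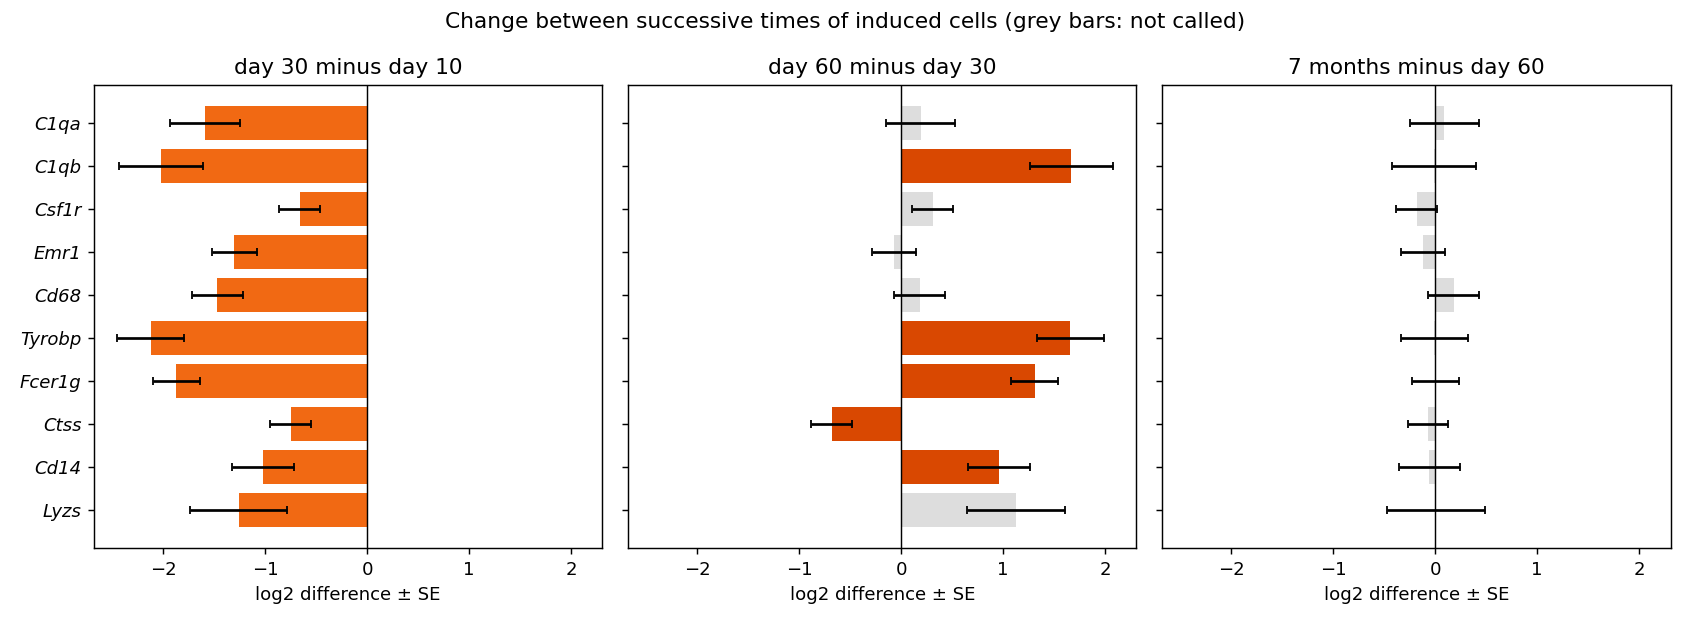
Log2 difference with its SE (horizontal axis, the same scale in each panel) of the 10 macrophage marker genes (rows) for day 30 minus day 10, day 60 minus day 30 and 7 months minus day 60, with coloured bars for genes called by limma and grey bars for the rest. All 10 bars point left in the first panel, 4 coloured bars point right and 1 left in the second, and none is coloured in the third.

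The 7-month and day 60 groups could not be separated. No member and none of the 8942 tested genes (0.00%) was called by limma between 7 months and day 60. At an unadjusted p under 0.05 there were 209 genes and 0 members, and with the replicate number as a block within these 2 groups 610 genes at that p and again 0 called. The members' differences ran from −0.18 ± 0.20 (Csf1r) to 0.18 ± 0.25 (Cd68), and paired by number C1qb differed by 0.05, −0.18 and 0.11 and Lyzs by −0.08, −0.04 and 0.14. Those pair differences were far smaller than the distance between arrays of either late group, which for Lyzs was 2.25 at 7 months and 2.21 on day 60. From day 10 to the last time, 6 members remained lower at 7 months than on day 10 (39.6% of tested genes) and none was higher (35.4%). Ctss fell by at least 1.72-fold, Emr1 by 2.82-fold (−1.49 ± 0.22), C1qa by 2.47-fold (−1.30 ± 0.34) and Cd68 by 2.16-fold (−1.11 ± 0.25). The Ctss bound holds only for the background estimate and scale used here. Fcer1g (−0.56 ± 0.23, adjusted p = 0.0394) lost its call without any day 10 array or 7-month array 1 or 3 (−0.57 to −0.32, adjusted p = 0.0654 to 0.212), and Csf1r (−0.53 ± 0.20, adjusted p = 0.0258) without day 10 array 2 or 3 or the first 7-month array (−0.52 to −0.32, adjusted p = 0.0571 to 0.146). C1qb, Cd14, Lyzs and Tyrobp were not called at −0.36 ± 0.41, −0.12 ± 0.30, −0.12 ± 0.48 and −0.47 ± 0.33, and Tyrobp was called without the second 7-month array (−0.84, adjusted p = 0.0251). Without both late arrays numbered 2, C1qb (−0.78), Tyrobp (−0.85) and Cd14 (−0.49) were called lower.

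The late arrays differed from each other along the whole set. The second array was the highest for 9 of 10 members at 7 months and 10 of 10 on day 60, and the first was the lowest for 8 and 9. The median SD of a member was 0.60 at 7 months and 0.60 on day 60, against 0.17 for all tested genes in both, while on day 10 it was 0.079 against 0.073 and on day 30 0.075 against 0.067. Summed over the 10 genes, the normalized signal was 1767, 5443 and 3076 on the 7-month arrays and 1770, 5655 and 2938 on the day 60 arrays. The second late arrays thus held about the sum of the day 10 arrays (4390 to 4440) or more, and the first held little more than the day 30 arrays (1370 to 1460) and acinar arrays (1310 to 1410). Beta arrays summed to 271 to 298.

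Markers of other cell types moved with these arrays. The summed signal of 8 mesenchymal markers was 3342, 8370 and 5059 on the 7-month arrays and 3380, 8574 and 4960 on the day 60 arrays, in the same order as the macrophage genes. The 9 neutrophil markers summed to 107.5, 257.8 and 58.35 at 7 months and 110.3, 252.3 and 57.16 on day 60, with at most 1 of them measured on an array. Red blood cell markers went the other way on the first array, at 8117, 1004 and 1220 at 7 months and 8308, 955.7 and 1127 on day 60. Endothelial markers stayed within 1560 to 1880 at 7 months and 1590 to 1900 on day 60, acinar cell markers within 110000 to 115000 and 108000 to 112000. On day 10, where the macrophage genes were high on every array, mesenchymal markers summed to 181 to 202 and red blood cell markers to 143 to 162, against 3820 to 3970 and 14500 to 14600 in acinar cells, so those cell types did not move with the macrophage genes there. B cell markers were measured on no array. The 11 T and NK cell markers, at most 2 of them measured on an array, summed to 329 to 379 on day 10 and 201 to 217 on day 30. They summed to 99.3 to 117 on day 60, 84.6 to 144 at 7 months, 271 to 298 in acinar cells and 121 to 134 in beta cells. The part of other cells in the members' values was not tested.

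**Figure D3:**
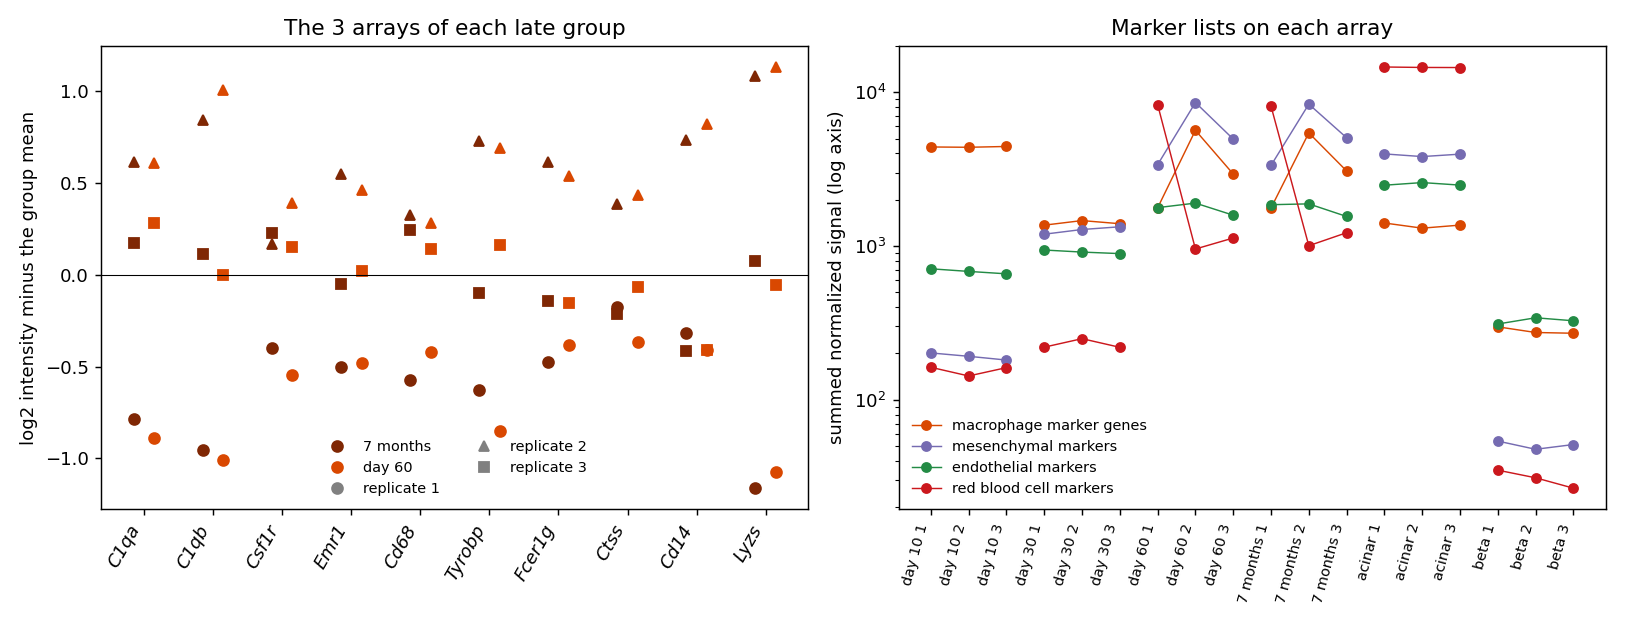
Left, log2 intensity minus the group mean (vertical axis) of each macrophage marker gene on the 3 arrays of the 7-month and day 60 groups, with marker shape for the replicate number. Right, summed normalized signal (log axis) of the macrophage marker genes and of mesenchymal, endothelial and red blood cell markers on each array: macrophage and mesenchymal sums peak together on the second late arrays, and the red blood cell sum peaks on the first.

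Other genes of the same pathways were read from lists of background knowledge. Of the complement genes, C1qg (now C1qc, the remaining C1q chain) averaged 9.38 ± 0.012 on day 10, 7.58 ± 0.12 on day 30, 8.98 ± 0.81 on day 60, 9.05 ± 0.95 at 7 months and 7.17 ± 0.17 in acinar cells (SD, n = 3), and was not measured in beta cells. C3, the central complement component, had another course, at 7.44 ± 0.16 on day 10, 8.98 ± 0.062 on day 30, 10.99 ± 0.92 on day 60 and 10.95 ± 1.0 at 7 months, with 10.32 ± 0.064 in acinar and 8.0 ± 0.057 in beta cells. Between day 60 and day 30, 4 of 4 tested complement genes were called higher (30.2% of all tested genes), among them Vsig4, a complement receptor of tissue macrophages that was measured only on 2 arrays of each late group. The call of Vsig4 is thus not independent of the filter on detection. Of the 8 listed complement genes only 4 were tested, so the count is no result about the list.

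Of 7 tested genes of Fc receptors and ITAM signalling, 5 were called lower on day 30 than on day 10 (30.0% of all tested genes) and 0 higher (31.1%), and 5 were higher on day 10 than in acinar cells (40.2%) and 0 lower (39.6%). Fcrl3 (now Fcgr4, an IgG receptor) averaged 8.08 ± 0.09 on day 10 and 6.0 ± 0.16 on day 30, Trem2, a lipid receptor that signals through Tyrobp, 7.46 ± 0.068 and 5.56 ± 0.14, and Fcgr3, an IgG receptor that needs the Fcer1g chain, 6.72 ± 0.16 and 5.36 ± 0.16 (SD, n = 3), and all 3 were unmeasured in acinar and beta cells. On day 60 against day 30, 4 of the 7 were higher (30.2% of all tested genes) and 1 lower (31.6%). Of the list of CSF1 ligands and myeloid transcription factors 3 of 12 were tested, and Sfpi1, which encodes PU.1, was measured in no group.

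The 12 tested genes among other macrophage markers did not move as a block. Against acinar cells on day 10, 5 were higher (40.2% of all tested genes) and 4 lower (39.6%). Laptm5, a lysosomal membrane protein of blood cells, averaged 10.67 ± 0.033 on day 10 against 8.45 ± 0.11 in acinar cells (2.21 higher on the log2 scale), and Lgals3, galectin-3, 10.33 ± 0.042 against 7.56 ± 0.093 (2.77 higher on the log2 scale). Ms4a7, a membrane protein of macrophages, was at 8.20 ± 0.032 on day 10 and was not measured in acinar cells. Mrc1, the mannose receptor CD206, went the other way: it was not measured on day 10, was at 5.51 ± 0.13 on day 30, 7.74 ± 0.83 on day 60 and 7.71 ± 0.67 at 7 months, and stood at 7.80 ± 0.053 in acinar cells. From the monocyte list, F13a1, a coagulation factor chain of monocytes and macrophages, was likewise unmeasured on days 10 and 30 and at 7.55 ± 0.99 on day 60, 7.47 ± 1.1 at 7 months and 7.36 ± 0.10 in acinar cells. From the activation list, Retnla, a product of alternatively activated macrophages, was unmeasured on day 10 and at 7.85 ± 0.88 on day 60, 7.74 ± 1.2 at 7 months and 8.78 ± 0.041 in acinar cells (SD, n = 3 throughout). Mrc1, F13a1 and Retnla, in part picked after their values were seen, were thus measured on every acinar array and on no day 10 array. C1qa, Emr1, Cd68 and Ctss were measured on all day 10 arrays and on no acinar array, with a bound of only 1.11-fold for Ctss. On day 10 against acinar cells, 4 of 6 tested activation genes were called higher (40.2% of all tested genes) and 1 lower (39.6%). Of 2 tested monocyte genes, 1 was called higher and 1 lower.

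Of 12 tested genes of monocyte-attracting chemokines and their receptors, 6 were called higher than in acinar cells on day 10 (40.2% of all tested genes), 4 on day 30 (39.6%), 7 on day 60 (37.6%) and 7 at 7 months (37.8%). None was called lower on day 10 (39.6%), on day 60 (39.4%) or at 7 months (39.9%), and 2 were on day 30 (39.7%). The counts called higher on days 10 and 30 were near the share of all genes. Ccl4, an inflammatory chemokine, averaged 8.90 ± 0.051 on day 10, 7.70 ± 0.031 on day 30, 9.69 ± 1.8 on day 60 and 9.74 ± 1.7 at 7 months, and Cxcl10, an interferon-induced chemokine, 7.47 ± 0.13, 8.29 ± 0.12, 8.81 ± 0.92 and 8.83 ± 0.73 (SD, n = 3), and neither was measured in acinar or beta cells. Cxcl1, a neutrophil attractant, was at 9.47 ± 0.028 on day 10 and 7.98 ± 0.053 in beta cells and was not measured in acinar cells. Among macrophage activation genes, Il1b, which encodes an inflammatory cytokine, had its lowest induced level on day 30, with 8.02 ± 0.12 on day 10, 5.95 ± 0.045 on day 30, 8.68 ± 0.38 on day 60 and 8.80 ± 0.31 at 7 months, but was also at 7.67 ± 0.013 in beta cells.

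Over the 18 arrays the members agreed to different degrees. The correlation of each member with the mean of the others, given as a description over arrays that share groups and normalization, ran from 0.971 (Fcer1g) and 0.964 (C1qb) through 0.927 (Lyzs) to 0.589 (Csf1r), 0.468 (Ctss) and 0.433 (Cd68). Over the 12 induced arrays alone Cd68 was at 0.876 and Csf1r at 0.880, while Ctss stayed at 0.459. Among pairs, C1qb and Lyzs reached 0.987 and Csf1r and Cd68 had −0.214. The 10 other tested genes whose pattern over the 18 arrays was most like the members' mean were C1qg (0.981), H2-DMa (0.978), Laptm5 (0.978), Vav1 (0.969), Hemp1 (0.968), Rgs1 (0.967), Lgals3 (0.964), Rhov (0.964), Slc11a1 (0.964) and Fcgr3 (0.958), with the Pearson correlation in parentheses.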

How the data were processed

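Groups and replicate numbers came from the sample titles. For every array the authors deposited intensity values for 18118 symbols, each paired with a p-value for detection, per the column names in the file headers. The deposited log10 series matrix equals log10 of the same intensities to within 5.5e-10 for 18112 symbols. Their software is not given in the sources used here. Detection p-values of 13699 symbols lie on a grid of 798 steps, and those of Csf1r, Emr1 and Lyzs do not, so "measured" rests on signals, a rule set after the values were seen.

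Intensities were corrected by normexp (limma 3.58.1, R 4.3.3), with negative controls inferred from symbols on the grid and an offset of 16, quantile normalized and taken to log2. Of all symbols, 8942 reached detection (p under 0.01) on 3 or more arrays and were tested, with 9176 left out, in 1 model of all 18 arrays with lmFit and eBayes, over 13 comparisons, with Benjamini-Hochberg adjustment over all tested genes and calls under 0.05. The script was tested on simulated data. Of 203 listed genes 197 were found. Same-numbered 7-month and day 60 arrays deviated together (correlation 0.79 to 0.86), so the numbers pair those 2 groups, on evidence from the data only. The members, lists and alternatives were chosen with earlier results of these data known. Named genes are the members, up to 4 called genes of a list with the largest differences, and the 10 genes most like the members' mean, and C3, Trem2, Fcgr3, F13a1, Mrc1, Retnla, Vsig4 and Sfpi1 were in part added after their values were seen. Sequences are RefSeq's. Precision is limited by 3 arrays per group.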

Additional observations from a re-analysis of the deposited data

How the results depend on the processing

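Member counts against beta cells kept to within 1.5 times of those reported, except that inferring the negative controls with limma's own function gave 4 called higher on day 30, and it gave 4 lower in beta than in acinar cells and 1 lower on day 30 than in acinar cells. Median scaling gave 2 higher in beta than in acinar cells, and against acinar cells 0 lower on day 10, 6 higher and 0 lower on day 30, 8 and 1 on day 60 and 7 and 1 at 7 months. Its sign changes were C1qb (1.03) and Lyzs (0.99) on day 30. The series matrix gave 2 higher and 4 lower in beta than in acinar cells, and against acinar cells 0 lower on day 10, 8 and 0 on day 30, 9 and 0 on day 60 and 8 and 0 at 7 months, with 6 lower on day 30 than on day 10. Its sign changes were Fcer1g in beta cells (0.13), Csf1r on day 10 (0.30), day 30 (0.19), day 60 (0.31) and at 7 months (0.15), C1qb (1.30), Tyrobp (0.17), Ctss (0.57), Cd14 (0.85) and Lyzs (1.32) on day 30, and Ctss on day 60 (0.05) and at 7 months (0.00), all against acinar cells. Without a filter on dim genes 0 were lower on day 10 than in acinar cells. In the added fits without the 7-month and day 60 arrays numbered 1, chosen after seeing the data, 7 were higher at 7 months and 7 on day 60 than in acinar cells, and 7 on day 60 than on day 30. Leaving out 1 array at a time, members higher than in acinar cells ranged from 7 to 8 on day 10 (lower 0 to 1), 2 to 3 on day 30 (lower 2 to 3), 4 to 7 on day 60 and 4 to 7 at 7 months, and those higher on day 60 than on day 30 from 3 to 6. The share of all tested genes called in each of these settings is not given here, so these counts cannot be set against a background. Causes were not tested.

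With the replicate number as a block, Lyzs was called on day 60 and at 7 months against acinar cells (1.02 and 1.03) and on day 60 against day 30 (1.13), and Emr1 on day 60 against acinar cells (0.48). The block changed no other member call. It does not pair the groups of these comparisons and takes late spread out of their error, so the added calls overstate the evidence. Dim members (Csf1r, Ctss, Emr1, Tyrobp) lie close to background in most groups, which limits what their differences can show.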
